A study of Rattus norvegicus with 16 samples.

Results

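Knee cartilage of osteoarthritic rats treated with a coacervate, cells and a drug was compared with healthy rat knee cartilage. The comparison takes the 4 libraries that the labels assign to the coacervate treatment and the 4 that they call healthy, 8 of the 16 libraries in the study, and it covers every gene measured. RNA was sequenced in 4 groups of 4 libraries. The other groups, used here only to place values, are osteoarthritic cartilage that received hyaluronic acid (HA) as carrier, also with cells and a drug, and osteoarthritic cartilage with no treatment named. The coacervate libraries carry the name CCD, the HA libraries HCD, the osteoarthritic libraries PBS and the healthy libraries Sham, and the age given for each is 10 weeks. Which drug and which cells were used, and what the coacervate was made of, is not in the labels. Nor do they say how osteoarthritis was induced or how long treatment lasted. Whether replicates are different rats is not stated, so each p-value measures only the spread between these libraries.

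Cartilage is built by chondrocytes, which secrete type II collagen (Col2a1) and the proteoglycan aggrecan (Acan). In osteoarthritis the matrix is broken down by metalloproteinases, the lining of the joint thickens with fibroblasts and macrophages, and the bone beneath the cartilage is remodelled by osteoclasts, multinucleated cells that form by fusion of myeloid precursors and dissolve bone matrix. A coacervate is a polymer-rich liquid phase that separates from water and can hold and release other substances, whereas HA is a natural polymer of joint fluid that is itself used as a carrier.

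All 8 libraries held cartilage RNA together with RNA of other tissues. Col2a1 stood between 214 and 416 FPKM in coacervate libraries and between 227 and 536 FPKM in healthy libraries, and ranked 89 to 234 among all genes. Prg4 ranked 140 to 748 and Comp 233 to 1015. Acan ranked 2299 to 4945, Hapln1 2375 to 7177, Col9a1 2235 to 9466 and Sox9 10876 to 12652. The listed cartilage matrix genes together took 0.484% to 0.563% of counts in coacervate libraries and 0.343% to 0.633% in healthy libraries. Matn1, a cartilage matrilin, was close to absent, at 0.11 to 0.37 FPKM in coacervate libraries and 0.13 to 0.64 FPKM in healthy libraries. Haemoglobin genes took 14.2% ± 1.84 of the counts in coacervate libraries and 14.2% ± 2.22 in healthy libraries (SD, n = 4 each). Genes of skeletal muscle took 0.819%, 1.39%, 2.75% and 0.807% in coacervate replicates 1 to 4, against 1.24%, 1.07%, 0.867% and 1.04% in healthy replicates 1 to 4, so coacervate replicate 3 stood apart. Total counts were 48629180 to 50725189 per coacervate library and 36988722 to 49342607 per healthy library. In such bulk samples, fewer cells of a type and less RNA per cell cannot be told apart.

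Across the transcriptome the coacervate libraries lay next to the healthy ones on 1 axis of variation and were more spread out on others. On the second principal component, which held 12% of the variance, coacervate libraries lay between 8 and 11.7, HA libraries between -26.5 and -4, osteoarthritic libraries between -31 and 5.5 and healthy libraries between 12.3 and 21. The first component, with 32.5% of the variance, set 2 osteoarthritic libraries far from the other 14 and did not divide coacervate (-32.3 to -0.6) from healthy (-12.2 to -3.9). Coacervate replicates 2 and 3 lay at -26.4 and -32.3 on it, outside the healthy range. On the third component, with 8.22% of the variance, coacervate replicate 3 stood at -39.3, the other coacervate libraries between -4.1 and 13.5 and the healthy libraries between -5.7 and 18.2. The coacervate and healthy groups did not overlap on the second component, where the gap between them was narrow beside their distance from the HA libraries. Osteoarthritic libraries were divided on it. Replicates 2 and 3 of that group lay at 1.3 and 5.5, not far below the coacervate libraries, and replicates 1 and 4 at -15.6 and -31.

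**Figure D1:**
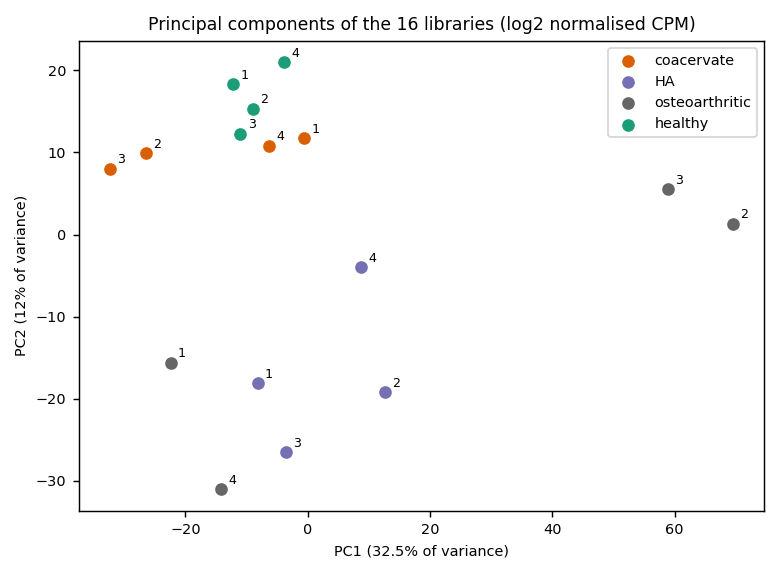
Position of the 16 libraries on the first 2 principal components of log2 normalised CPM (counts scaled to library size), with the percentage of variance on each axis; colours give the group and numbers the replicate. The 4 coacervate libraries (8 to 11.7 on the vertical axis) sit just below the 4 healthy ones (12.3 to 21). The HA libraries lie below 0, and the osteoarthritic libraries run from -31 to 5.5.

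No gene passed the test between coacervate and healthy cartilage. Of 14337 genes tested with edgeR's quasi-likelihood test, 0 (0%) had an adjusted p under 0.05, the smallest adjusted p being 0.235. At an unadjusted p under 0.05 there were 551 genes (3.84%), 285 higher and 266 lower, and DESeq2 called 15 genes on the same counts. In 525 genes (3.66%) the values of the groups did not overlap. Levels are given as CPM after TMM scaling and are compared only within a gene, since CPM ignores gene length. The median log2 fold change was 0.0045, the middle of the distribution ran from -0.10 to 0.12 (quartiles), and 143 genes (0.997%) differed by 2-fold or more. The median standard error was 0.18 on the log2 scale, so small differences of single genes were not detectable here. In the same fit, HA against healthy gave 20 calls and osteoarthritic against healthy gave 64. These 3 contrasts share the healthy libraries.

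**Figure D2:**
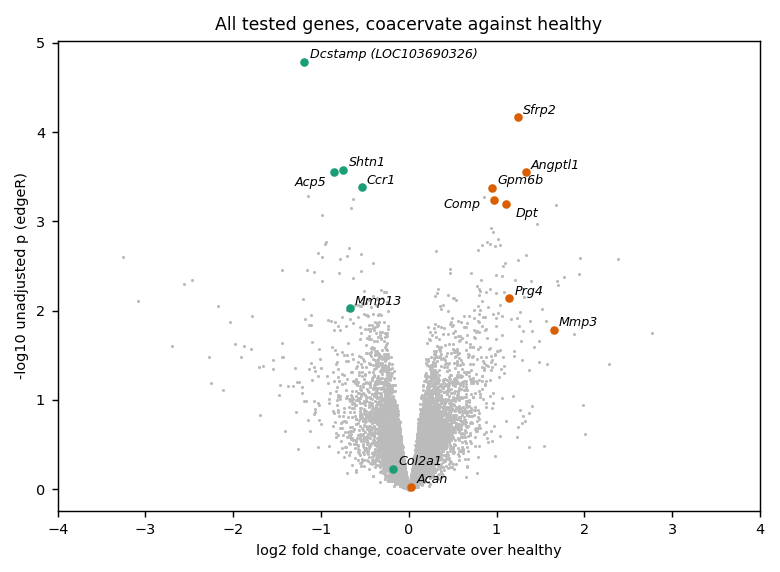
Each point is 1 of the 14337 genes tested, with the log2 fold change of coacervate over healthy on the horizontal axis and -log10 of the unadjusted edgeR p on the vertical axis; labelled genes are coloured by sign, and 3 genes lie beyond the horizontal limits. Sfrp2, Angptl1 and Gpm6b have the smallest p among named genes on the positive side and LOC103690326 (Dcstamp), Shtn1 and Acp5 on the negative side, with Col2a1 and Acan near 0.

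Sfrp2 and Angptl1 had the smallest p-values among positive differences of named genes, and Dpt is 1 of 4 markers set for this comparison. All 3 encode secreted proteins of connective tissue. Sfrp2, a secreted frizzled-related protein that binds Wnt ligands, had 40.7, 46.5, 69.2 and 26.6 CPM in coacervate libraries, against 20.5, 20.7, 19.0 and 17.1 CPM in healthy libraries. The groups did not overlap, and the lowest coacervate value was replicate 4. The log2 fold change was 1.25 ± 0.23 (SE; 95% interval 0.75 to 1.74), a 2.37-fold difference, with an edgeR adjusted p of 0.49. Angptl1, a secreted angiopoietin-like protein, had 23.9, 26.2, 53.2 and 14.4 CPM in coacervate libraries, against 13.4, 12.6, 10.8 and 10.0 CPM in healthy libraries (log2 fold change 1.33 ± 0.29, adjusted p 0.722). Dpt, dermatopontin, a matrix protein that binds the proteoglycan decorin and collagen fibrils, had 65.3, 68.6, 138 and 56.4 CPM in coacervate libraries, against 29.3, 48.4, 41.3 and 32.7 CPM in healthy libraries (log2 fold change 1.11 ± 0.26, adjusted p 0.722). In all 3 genes coacervate replicate 3, the library with the most muscle RNA, had the highest value and coacervate replicate 4 the lowest of its group. Without replicate 3 the log2 fold change was 0.74 for Dpt and 0.88 for Angptl1.

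In the deposited coordinates (rn6), Sfrp2 lies on the plus strand at chr2:182723854-182731764, Angptl1 on the plus strand at chr13:74410010-74474681 and Dpt on the plus strand at chr13:83073544-83102401. The promoters of these leading genes are shown because the 3 had their higher values in the same libraries. Each runs from 250 bases before to 50 bases after the annotated start (RefSeq, build GRCr8, plus strand). The Sfrp2 window is chr2:171387286-171387585, the Angptl1 window chr13:71513097-71513396 and the Dpt window chr13:79656091-79656390. Capitals mark the letters GGAAA or their reverse complement TTTCC, the core bound by NFAT factors, and TATAAA or TTTATA, the TATA box, searched on both strands with no overlap between the motifs.
Sfrp2: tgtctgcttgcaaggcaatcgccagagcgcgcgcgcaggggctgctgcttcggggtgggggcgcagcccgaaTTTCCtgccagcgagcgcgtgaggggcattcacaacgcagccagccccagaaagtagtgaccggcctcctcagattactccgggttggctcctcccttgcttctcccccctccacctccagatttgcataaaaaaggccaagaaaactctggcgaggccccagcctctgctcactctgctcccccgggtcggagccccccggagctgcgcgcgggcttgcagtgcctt
Angptl1: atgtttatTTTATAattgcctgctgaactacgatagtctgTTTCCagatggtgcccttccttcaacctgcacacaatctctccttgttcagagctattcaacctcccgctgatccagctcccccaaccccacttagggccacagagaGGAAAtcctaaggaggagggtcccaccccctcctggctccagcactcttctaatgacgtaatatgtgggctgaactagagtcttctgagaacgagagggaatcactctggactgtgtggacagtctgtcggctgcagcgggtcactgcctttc
Dpt: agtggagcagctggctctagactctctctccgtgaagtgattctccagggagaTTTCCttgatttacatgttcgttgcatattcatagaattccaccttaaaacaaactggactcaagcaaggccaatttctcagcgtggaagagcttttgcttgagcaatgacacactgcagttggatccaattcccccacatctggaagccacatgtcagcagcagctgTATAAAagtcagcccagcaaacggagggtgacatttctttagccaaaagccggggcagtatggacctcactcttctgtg
The NFAT core was found in 62.7% and the TATA box in 14.2% of the 33469 promoters of this length in the table. Dpt held 1 TATA box and 1 NFAT core, and Sfrp2 held 1 NFAT core. Angptl1 held 2 NFAT cores and 1 match to the reverse letters TTTATA, which lay at the upstream end of its window, far from the start. These are matches of letters, and their use was not tested.

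Gpm6b, a membrane proteolipid, completed the 3 smallest p-values among positive differences of named genes, with 12.2, 19.0, 22.1 and 11.8 CPM in coacervate libraries against 9.40, 8.26, 8.60 and 7.34 CPM in healthy libraries (log2 fold change 0.95 ± 0.21, edgeR adjusted p 0.722). Its groups did not overlap. In HA and osteoarthritic cartilage the means of these 4 genes were near those after coacervate treatment. Sfrp2 averaged 45.7 ± 17.7 CPM in coacervate, 37.6 ± 7.57 in HA, 38.5 ± 7.30 in osteoarthritic and 19.3 ± 1.66 CPM in healthy libraries (SD, n = 4 each). Angptl1 averaged 29.4 CPM in coacervate, 31.9 in HA, 29.8 in osteoarthritic and 11.7 CPM in healthy libraries. Gpm6b averaged 16.3 CPM in coacervate, 15.8 in HA, 15.9 in osteoarthritic and 8.40 CPM in healthy libraries. Dpt averaged 82.0 CPM in coacervate, 103 in HA, 91.1 in osteoarthritic and 37.9 CPM in healthy libraries, and it passed the edgeR test against healthy in osteoarthritic (adjusted p 0.0485) and HA cartilage (adjusted p 0.0475). The direct differences of coacervate from HA were log2 0.28 ± 0.23 for Sfrp2 and log2 -0.33 ± 0.26 for Dpt, and neither passed.

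**Figure D3:**
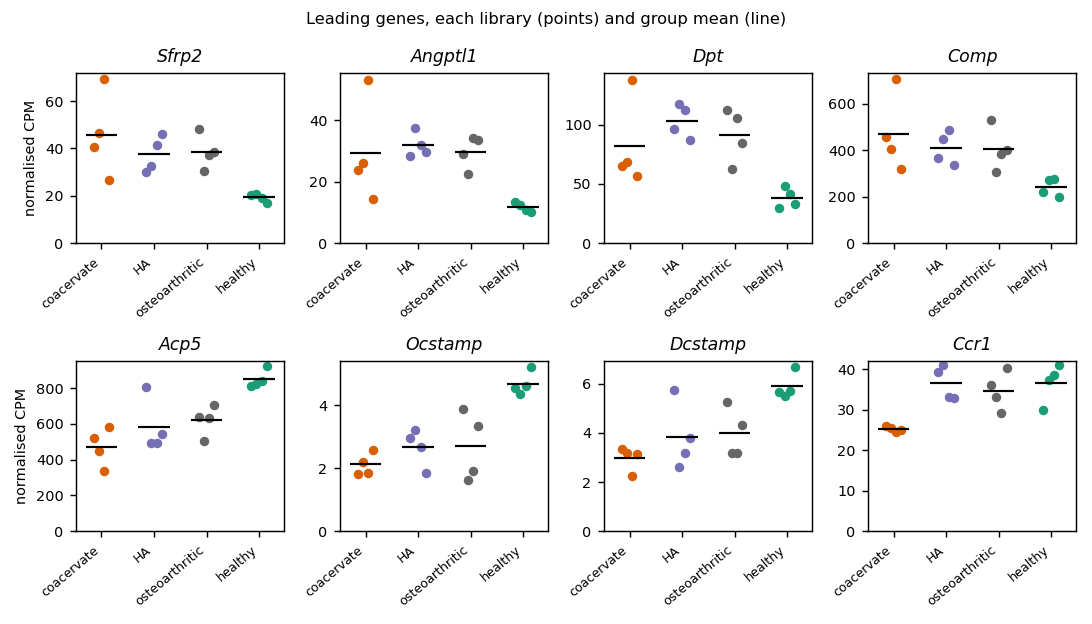
Normalised CPM of 8 genes in each library (points) with the group mean (line), for coacervate, HA, osteoarthritic and healthy cartilage; each vertical axis starts at 0. In the upper row (Sfrp2, Angptl1, Dpt, Comp) every coacervate point lies above every healthy point, and in the lower row (Acp5, Ocstamp, Dcstamp, Ccr1) every coacervate point lies below every healthy one.

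Among 28 listed genes of fibroblasts and fibrous matrix, 26 were tested and 26 had a positive log2 fold change, with a median of 0.44, against 0.0045 and 51.1% positive over all genes tested. Col1a2 and Col6a3 were not among the symbols of the table. None of the 26 passed the edgeR test. In 7 of them (26.9%) all 4 coacervate values lay above all 4 healthy values, against 1.75% of all genes tested. Besides Dpt and Angptl1 these were Mfap5, Fbln2, Fn1, Col3a1 and Pdgfra, named after their values were seen. Dpt and Angptl1 are markers set for this comparison, and the list was chosen with earlier results known. The share of 26.9% is therefore a description and not a test. Col3a1, which encodes the type III collagen of loose connective tissue, had 1787, 2361, 3847 and 1225 CPM in coacervate libraries, against 978, 1099, 1212 and 708 CPM in healthy libraries (log2 fold change 1.21 ± 0.36). Mfap5, a microfibril protein, had 14.7, 19.7, 28.8 and 14.1 CPM in coacervate libraries, against 12.4, 11.1, 9.58 and 9.70 CPM in healthy libraries (log2 fold change 0.85 ± 0.20). It passed the edgeR test in osteoarthritic against healthy cartilage (log2 1.055, adjusted p 0.0297). Fibronectin, Fn1, had 2562, 3711, 6064 and 2623 CPM in coacervate libraries, against 1917, 1936, 2114 and 1586 CPM in healthy libraries (log2 fold change 0.99 ± 0.41). Col1a1, the main collagen of bone and fibrous tissue, overlapped between the groups, at 8105, 12334, 11738 and 9513 CPM in coacervate libraries and 7751, 8244, 12432 and 8041 CPM in healthy libraries (log2 fold change 0.19 ± 0.32, 95% interval -0.49 to 0.88). Coacervate replicate 3 had the highest of the 8 values in 21 of the 26 genes. Without it the median of the list was 0.18. Against the same healthy libraries the median of these genes was 0.548 for HA and 0.542 for osteoarthritic cartilage.

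The tendon list had the same sign as these genes, with 10 of its 11 tested members positive and a median of 0.47, and all 20 tested muscle genes were positive with a median of 0.43. Against the same healthy libraries the tendon median was 0.517 for HA and 0.555 for osteoarthritic cartilage. The muscle median was -0.748 for HA and -0.731 for osteoarthritic cartilage. Coacervate replicate 3 was the highest of the 8 libraries in all 20 muscle genes and in 10 of the 11 tendon genes. Without that library the muscle median was -0.08 and the tendon median 0.25. Acta1, skeletal muscle actin, had 1586, 2763, 5652 and 1701 CPM in coacervate libraries, against 2304, 1826, 1593 and 2042 CPM in healthy libraries. The groups overlapped in every muscle gene. Coacervate replicates 1 and 4 had muscle shares of 0.819% and 0.807%, below those of all 4 healthy libraries, and Sfrp2 levels of 40.7 and 26.6 CPM. The part of muscle or tendon tissue in the fibrous matrix differences was not tested.

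Of 14 listed secreted Wnt modulators, 11 were tested. Their median log2 fold change was -0.08, with 5 positive and 6 negative, and 3 (27.3%) had all coacervate values above all healthy ones, against 1.75% of all genes. Those 3 were Sfrp2 and, named after their values were seen, Sfrp4 and Dkk3, both secreted modulators of Wnt signalling. Sfrp2 is a marker set for this comparison, and the list was chosen with earlier results known. The share of 27.3% is therefore a description and not a test. Sfrp4 had 64.9, 55.3, 79.3 and 55.4 CPM in coacervate libraries, against 52.1, 39.2, 45.8 and 41.9 CPM in healthy libraries (log2 fold change 0.51 ± 0.17). It passed the edgeR test in osteoarthritic against healthy cartilage (log2 0.949, adjusted p 0.0237). Dkk3 had 52.5, 54.6, 82.3 and 42.5 CPM in coacervate libraries, against 40.4, 38.6, 40.4 and 39.8 CPM in healthy libraries (log2 fold change 0.54 ± 0.18). The other tested members, Frzb, Rspo1, Sost, Rspo3, Sfrp1, Wif1, Dkk1 and Sfrp5, ran from 0.27 down to -0.32. Wnt target and receptor genes had a median of -0.03 over 11 tested of 15 listed, with 0 non-overlapping members.

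Genes of osteoclasts showed the opposite sign. Acp5, the tartrate-resistant acid phosphatase by which osteoclasts are stained, had 520, 447, 339 and 580 CPM in coacervate libraries, against 812, 826, 840 and 922 CPM in healthy libraries. Every coacervate value was below every healthy one. The log2 fold change was -0.85 ± 0.18 (SE; 95% interval -1.24 to -0.46), 1.80-fold lower after coacervate treatment, with an edgeR adjusted p of 0.722. Means were 472 ± 104 CPM in coacervate, 583 ± 150 in HA, 620 ± 83.5 in osteoarthritic and 850 ± 49.6 CPM in healthy libraries (SD, n = 4 each). The direct difference of coacervate from HA (log2 -0.31 ± 0.18) did not pass.

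The smallest p of all 14337 genes belonged to a model of Dcstamp, the receptor-like protein needed for the fusion of osteoclast precursors. The deposited table holds this gene under 2 models on chromosome 7. One carries the symbol Dcstamp (rn6 chr7:78649875-78650906, plus strand). The other, 78732904 to 78741588 on the same strand, is listed as LOC103690326, and its gene number is Dcstamp in RefSeq. The LOC103690326 model had 9.72, 8.39, 5.73 and 8.53 CPM in coacervate libraries, against 20.0, 16.3, 15.0 and 22.6 CPM in healthy libraries. Its log2 fold change was -1.19 ± 0.19 (95% interval -1.60 to -0.78), 2.28-fold lower after coacervate treatment, with an unadjusted p of 1.64e-05 and an edgeR adjusted p of 0.235. The Dcstamp model had 3.36, 3.17, 2.23 and 3.14 CPM in coacervate libraries, against 5.68, 5.49, 5.71 and 6.70 CPM in healthy libraries (log2 fold change -0.99 ± 0.24, adjusted p 0.804). Both models separated the groups completely and in the same direction. How reads were divided between them is uncertain, and both were singled out after their values were seen. LOC103690326 averaged 8.09 CPM in coacervate, 11.2 in HA, 11.5 in osteoarthritic and 18.5 CPM in healthy libraries.

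Ocstamp, a further membrane protein of osteoclast fusion, also named after its values were seen, had 1.82, 2.21, 1.85 and 2.59 CPM in coacervate libraries, against 4.55, 4.37, 4.62 and 5.22 CPM in healthy libraries (log2 fold change -1.15 ± 0.26, edgeR adjusted p 0.722). The groups were well separated at low levels. The promoters of Acp5 and Ocstamp are shown because NFATc1 is the master transcription factor of osteoclasts. Capitals mark the same motifs as above, and the sequences run 5′ to 3′ on the minus strand (RefSeq, build GRCr8). The upstream Acp5 start has the window chr8:28945881-28946180, the downstream Acp5 start chr8:28943880-28944179, and Ocstamp chr3:174560858-174561157.
Acp5 upstream start: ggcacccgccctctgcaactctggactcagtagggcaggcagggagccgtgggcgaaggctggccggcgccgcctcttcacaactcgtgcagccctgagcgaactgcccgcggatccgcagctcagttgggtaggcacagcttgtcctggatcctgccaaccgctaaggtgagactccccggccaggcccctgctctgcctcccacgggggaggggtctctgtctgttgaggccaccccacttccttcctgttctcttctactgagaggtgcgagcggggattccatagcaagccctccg
Acp5 downstream start: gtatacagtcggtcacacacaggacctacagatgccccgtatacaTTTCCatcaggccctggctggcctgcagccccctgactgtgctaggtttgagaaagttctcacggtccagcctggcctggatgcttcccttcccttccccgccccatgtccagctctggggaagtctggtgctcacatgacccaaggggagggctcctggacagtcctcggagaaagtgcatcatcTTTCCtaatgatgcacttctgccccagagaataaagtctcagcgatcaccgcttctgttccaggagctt
Ocstamp: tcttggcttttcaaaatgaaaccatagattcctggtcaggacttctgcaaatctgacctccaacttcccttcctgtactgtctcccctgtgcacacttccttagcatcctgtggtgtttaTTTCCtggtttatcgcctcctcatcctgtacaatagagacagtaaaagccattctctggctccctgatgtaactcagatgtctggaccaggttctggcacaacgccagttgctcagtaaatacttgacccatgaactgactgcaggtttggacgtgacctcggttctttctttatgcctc
The downstream Acp5 window held 2 NFAT cores and the Ocstamp window 1, beside the share of 62.7% in all promoters, and no motif was found in the upstream Acp5 window. Nfatc1 itself had a log2 fold change of -0.05.

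All 18 listed osteoclast genes were tested, with 15 negative and 3 positive and a median of -0.27. None passed the edgeR test. In 6 (33.3%) all coacervate values lay below all healthy values, against 1.91% of all genes tested. They were Acp5, Ocstamp and Dcstamp and, named after their values were seen, Atp6v0d2 (a proton pump subunit also used in fusion), Mmp9 (gelatinase B) and Tcirg1 (a proton pump subunit of the bone-facing membrane). Acp5 is a marker set for this comparison, and the list was chosen with earlier results known. The share of 33.3% is therefore a description and not a test. Atp6v0d2 had 29.5, 19.1, 16.6 and 25.9 CPM in coacervate libraries, against 30.3, 31.5, 30.9 and 40.4 CPM in healthy libraries (log2 fold change -0.55 ± 0.18). Mmp9 had 497, 507, 322 and 460 CPM in coacervate libraries, against 516, 587, 554 and 673 CPM in healthy libraries (log2 fold change -0.39 ± 0.16). Both separations were narrow, with coacervate replicate 1 of Atp6v0d2 and coacervate replicate 2 of Mmp9 just under the lowest healthy library. Ctsk, the collagen-degrading cathepsin K, overlapped between the groups, at 1242, 489, 496 and 615 CPM in coacervate libraries and 938, 965, 953 and 1417 CPM in healthy libraries (log2 fold change -0.59 ± 0.27). Coacervate replicate 1 alone lay within the healthy range, and without it the log2 fold change was -1.003. Calcr, the calcitonin receptor of mature osteoclasts, ran the other way, at 4.55, 6.02, 2.82 and 4.84 CPM in coacervate libraries and 3.08, 2.12, 0.336 and 1.99 CPM in healthy libraries (log2 fold change 1.27 ± 0.44). Coacervate replicate 3 was the lowest of the 8 libraries in 8 of the 18 genes, and without it the median was -0.22. Without healthy replicate 4, the highest of the 8 libraries in Acp5, Ctsk and Mmp9, the median was -0.13.

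Genes that control osteoclast formation were negative too. The list of RANKL (Tnfsf11), the cytokine that drives it, its decoy receptor osteoprotegerin (Tnfrsf11b), the growth factor Csf1 and its receptor Csf1r had a median of -0.19, with 4 of 4 negative and 0 non-overlapping. Tnfsf11 was low in both groups, at 1.13, 0.678, 1.03 and 0.871 CPM in coacervate libraries and 1.26, 1.91, 0.904 and 1.26 CPM in healthy libraries. Without coacervate replicate 3 the median of this list was -0.35. Genes of osteoblasts and osteocytes, which build bone and are embedded in it, had 15 of 16 members negative and a median of -0.25. Dmp1, a matrix protein of osteocytes named after its values were seen, had 299, 269, 257 and 302 CPM in coacervate libraries, against 446, 377, 413 and 348 CPM in healthy libraries (log2 fold change -0.49 ± 0.16). Dmp1 and Runx2 were the 2 non-overlapping members (12.5%, against 1.91% of all genes), and without coacervate replicate 3 the list median was -0.12. The osteoblast and osteocyte genes together took 0.223% to 0.347% of counts in coacervate libraries and 0.375% to 0.439% in healthy libraries, ranges that did not overlap. The part of bone carried with the cartilage in the osteoclast differences was not tested.

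The remaining negative leaders were Ccr1 and Shtn1. Ccr1, a chemokine receptor of monocytes and osteoclast precursors, had 26.0, 25.5, 24.5 and 25.1 CPM in coacervate libraries, against 29.9, 37.3, 38.5 and 41.1 CPM in healthy libraries (log2 fold change -0.54 ± 0.12, edgeR adjusted p 0.722). The coacervate values varied little. Its mean was 25.3 CPM in coacervate, 36.7 in HA, 34.7 in osteoarthritic and 36.7 CPM in healthy libraries, so the coacervate group was below all 3 others, although the differences from HA (log2 -0.54 ± 0.12, adjusted p 0.148) and from osteoarthritic (log2 -0.46 ± 0.12, adjusted p 0.106) did not pass. Shtn1, shootin 1, a protein of neuronal polarity, had 7.14, 7.31, 6.72 and 6.83 CPM in coacervate libraries, against 14.04, 9.36, 12.1 and 11.6 CPM in healthy libraries (log2 fold change -0.75 ± 0.16, adjusted p 0.722). Its groups did not overlap.

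The core cartilage genes were near their healthy levels, within wide intervals. Col2a1 had 2139, 1387, 1134 and 1793 CPM in coacervate libraries and 1605, 1819, 2658 and 1204 CPM in healthy libraries (log2 fold change -0.18 ± 0.32, 95% interval -0.86 to 0.51). Acan had 203, 134, 175 and 197 CPM in coacervate libraries and 169, 182, 235 and 111 CPM in healthy libraries (log2 fold change 0.03 ± 0.35, 95% interval -0.73 to 0.78). Sox9, the transcription factor of chondrocytes, had 9.82, 7.43, 8.85 and 7.51 CPM in coacervate libraries and 6.45, 7.15, 12.8 and 6.72 CPM in healthy libraries (log2 fold change 0.02 ± 0.33, 95% interval -0.68 to 0.72). The groups overlapped in all 3, and the sign of each difference turned when certain single libraries were left out. Col2a1 was positive (0.062) without healthy replicate 3. Acan was negative without coacervate replicate 1 (-0.046) or 4 (-0.027) or healthy replicate 4 (-0.136). Sox9 was negative without coacervate replicate 1 (-0.065) or 3 (-0.004) or healthy replicate 1 (-0.081), 2 (-0.044) or 4 (-0.067). Each interval reached at least 0.51 above and 0.68 below 0, so differences of that size could not be detected with these libraries. The 3 genes did not pass the edgeR test in HA or osteoarthritic against healthy cartilage either. For HA the log2 fold changes were 0.33 for Col2a1, 0.23 for Acan and -0.21 for Sox9. For osteoarthritic cartilage they were 0.11, 0.12 and -0.555, so levels near healthy were not particular to coacervate treatment.

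Several genes of the cartilage surface and of the matrix around fibrils had higher values in coacervate than in healthy libraries, though none passed the test. For Comp and Prg4 the HA and osteoarthritic means were also above the healthy ones. Comp averaged 471 CPM in coacervate, 411 in HA, 405 in osteoarthritic and 241 CPM in healthy libraries. Prg4 averaged 777 CPM in coacervate, 731 in HA, 666 in osteoarthritic and 352 CPM in healthy libraries. Comp, the cartilage oligomeric matrix protein that joins collagen fibrils, had 457, 404, 706 and 318 CPM in coacervate libraries, against 219, 271, 275 and 199 CPM in healthy libraries. The groups did not overlap, and the log2 fold change was 0.97 ± 0.23 (95% interval 0.49 to 1.45, edgeR adjusted p 0.722). Prg4, lubricin, the lubricant of the superficial zone and the synovium, had 495, 836, 1263 and 516 CPM in coacervate libraries, against 422, 342, 286 and 358 CPM in healthy libraries (log2 fold change 1.14 ± 0.37, adjusted p 1). Prelp, a leucine-rich matrix proteoglycan named after its values were seen, had 229, 300, 503 and 218 CPM in coacervate libraries, against 198, 204, 202 and 174 CPM in healthy libraries (log2 fold change 0.69 ± 0.29). Over the cartilage list of 24 genes, 22 were tested, 11 were positive and 11 negative, the median was -0.08, 3 (13.6%, against 1.75% of all genes) lay wholly above and 1 (4.55%, against 1.91%) wholly below the healthy values. That 1, named because its count is so small, was Snorc, a membrane proteoglycan of chondrocytes, at 8.43, 6.42, 5.94 and 9.32 CPM in coacervate libraries and 9.49, 10.9, 10.1 and 9.55 CPM in healthy libraries. The members that were highest, Prg4, Comp, Sox5, Fmod, Prelp, Cilp and Cilp2, ran from 1.14 down to 0.56, and all of them had their top value in coacervate replicate 3. Tenomodulin's relative Cnmd and the minor cartilage collagen Col9a3 were instead lowest in that library, at 6.38 CPM and 20.6 CPM.

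Hypertrophic chondrocyte genes, which mark cartilage turning to bone, had 12 of 13 members negative and a median of -0.25. Col10a1, the collagen of hypertrophic cartilage, had 128, 64.0, 47.6 and 116 CPM in coacervate libraries and 160, 167, 235 and 30.8 CPM in healthy libraries (log2 fold change -0.74 ± 0.47, 95% interval -1.73 to 0.26). Healthy replicate 4 was below all coacervate libraries. Mmp13, the collagenase that cleaves type II collagen, had 764, 650, 416 and 628 CPM in coacervate libraries and 1204, 696, 794 and 1224 CPM in healthy libraries (log2 fold change -0.67 ± 0.23, 95% interval -1.16 to -0.19, edgeR adjusted p 1). Only coacervate replicate 1 lay within the healthy range. Mmp13 averaged 614 CPM in coacervate, 694 in HA, 627 in osteoarthritic and 980 CPM in healthy libraries.

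Most other proteases had positive differences, and Mmp3 was among the few whose groups did not overlap. Mmp3, stromelysin 1, which degrades proteoglycans and activates other metalloproteinases, had 17.8, 18.3, 29.3 and 8.22 CPM in coacervate libraries, against 5.00, 7.34, 5.73 and 5.33 CPM in healthy libraries. The groups did not overlap, with coacervate replicate 4 just above the highest healthy library. The log2 fold change was 1.65 ± 0.61 (95% interval 0.35 to 2.95, edgeR adjusted p 1). Means were 18.4 ± 8.64 CPM in coacervate, 66.9 ± 52.9 in HA, 65.8 ± 50.6 in osteoarthritic and 5.85 ± 1.04 CPM in healthy libraries (SD, n = 4 each), and Mmp3 passed the edgeR test against healthy in HA (log2 3.51, adjusted p 0.0475) and osteoarthritic cartilage (log2 3.49, adjusted p 0.0297). The coacervate mean lay between, but its difference from osteoarthritic cartilage (log2 -1.84 ± 0.61, adjusted p 0.139) did not pass either. Mmp10, stromelysin 2, had 3.17, 3.19, 6.28 and 1.17 CPM in coacervate libraries, against 1.03, 1.62, 1.16 and 1.11 CPM in healthy libraries (log2 fold change 1.48 ± 0.65), with replicate 4 inside the healthy range. Mmp12, the macrophage elastase, named after its values were seen, had 12.8, 16.4, 18.4 and 5.87 CPM in coacervate libraries, against 6.52, 0.954, 0.671 and 2.06 CPM in healthy libraries (log2 fold change 2.39 ± 0.67, adjusted p 0.992). Adamts5, an aggrecanase, overlapped, at 12.5, 16.4, 21.2 and 13.1 CPM in coacervate libraries and 15.3, 13.2, 14.7 and 15.3 CPM in healthy libraries (log2 fold change 0.11 ± 0.25, 95% interval -0.42 to 0.64). Over the protease list, 26 of 28 were tested, 19 were positive and 7 negative, the median was 0.21, and 5 (19.2%, against 1.75% of all genes) lay wholly above and 2 (7.69%, against 1.91%) wholly below the healthy values. Without coacervate replicate 3 the median was 0.07. Of all counts, the protease list took 0.441% to 0.541% in coacervate libraries and 0.5% to 0.601% in healthy libraries. The positive median therefore did not come with a larger share of counts. Against the same healthy libraries the protease median was 0.419 for HA and 0.413 for osteoarthritic cartilage. Besides Mmp3, the 5 above were Mmp2, Mmp19, Adamts12 and Plau, and the 2 below were Mmp9 and Mmp28, named after their values were seen.

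**Figure D4:**
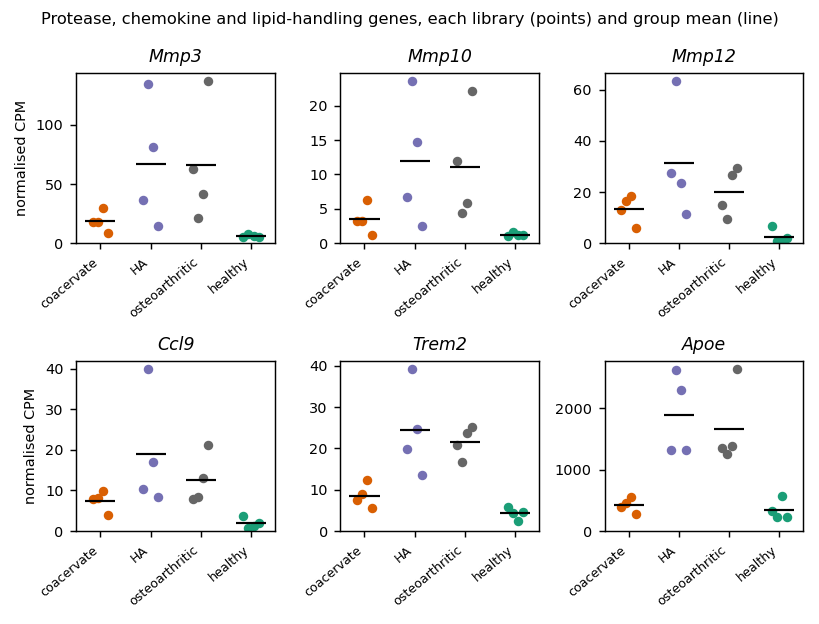
Normalised CPM of Mmp3, Mmp10, Mmp12, Ccl9, Trem2 and Apoe in each library (points) with the group mean (line), for coacervate, HA, osteoarthritic and healthy cartilage; each vertical axis starts at 0. Coacervate means of Mmp3 (18.4 CPM) and Trem2 (8.57 CPM) lie between those of the diseased groups and healthy cartilage, and that of Apoe (422 CPM) is close to the healthy mean (336 CPM).

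Apoe, Ccl2 and Ccl7 had coacervate means near the healthy ones, whereas Trem2 and Ccl9 had coacervate means above the healthy and below the osteoarthritic ones. Apoe, the lipid carrier abundant in tissue macrophages, had 391, 462, 563 and 272 CPM in coacervate libraries and 322, 227, 574 and 222 CPM in healthy libraries (log2 fold change 0.33 ± 0.35, 95% interval -0.41 to 1.07). The groups overlapped, and without healthy replicate 3, the highest library, the log2 fold change was 0.71. Its mean was 422 ± 122 CPM in coacervate, 1887 ± 669 in HA, 1663 ± 659 in osteoarthritic and 336 ± 165 CPM in healthy libraries (SD, n = 4 each). Ccl2, the monocyte attractant, had 4.18, 2.85, 6.34 and 1.80 CPM in coacervate libraries and 2.48, 1.98, 4.49 and 7.69 CPM in healthy libraries (log2 fold change -0.13 ± 0.46, 95% interval -1.11 to 0.85). It averaged 3.79 CPM in coacervate, 16.9 in HA, 19.9 in osteoarthritic and 4.16 CPM in healthy libraries. Ccl7, a related chemokine, had 1.78, 0.478, 1.22 and 0.527 CPM in coacervate libraries and 0.705, 0.648, 0.749 and 1.26 CPM in healthy libraries (log2 fold change 0.25 ± 0.48, 95% interval -0.76 to 1.26), against means of 5.65 CPM in HA and 6.05 CPM in osteoarthritic cartilage. The upper bounds for these 3 genes were 1.07, 0.85 and 1.26. The differences of osteoarthritic from healthy cartilage were log2 2.31 ± 0.36, 2.26 ± 0.47 and 2.85 ± 0.48, and all 3 passed the edgeR test. The bounds and these estimates share the healthy libraries, so setting them side by side is a description and not a test. The direct differences of coacervate from osteoarthritic cartilage were log2 -1.98 ± 0.36 for Apoe (edgeR adjusted p 0.0521), -2.40 ± 0.47 for Ccl2 (0.0639) and -2.59 ± 0.47 for Ccl7 (0.0521), and none passed at 0.05.

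Trem2, a lipid receptor of macrophages and osteoclast precursors, had 7.52, 8.85, 12.2 and 5.69 CPM in coacervate libraries, against 5.70, 4.48, 2.45 and 4.50 CPM in healthy libraries (log2 fold change 0.998 ± 0.316, 95% interval 0.33 to 1.67, edgeR adjusted p 1). It averaged 8.57 CPM in coacervate, 24.3 in HA, 21.6 in osteoarthritic and 4.28 CPM in healthy libraries, so its mean was intermediate. The coacervate and healthy groups overlapped, with coacervate replicate 4 just under healthy replicate 1. The direct differences of Trem2 from osteoarthritic (log2 -1.335 ± 0.313, edgeR adjusted p 0.0942) and HA cartilage (log2 -1.505 ± 0.314, adjusted p 0.148) did not pass. Ccl9, a chemokine of monocytes and osteoclasts named after its values were seen, had 7.94, 8.05, 9.88 and 3.87 CPM in coacervate libraries, against 3.76, 0.820, 1.24 and 1.86 CPM in healthy libraries (log2 fold change 1.95 ± 0.54, adjusted p 0.992). It was the only non-overlapping gene of 19 tested inflammatory mediators (5.26%, against 1.75% of all genes), whose median was -0.13, or 0.03 without healthy replicate 4. Il1b, interleukin 1 beta, had 18.6, 9.65, 9.08 and 10.3 CPM in coacervate libraries and 15.96, 7.69, 15.0 and 18.1 CPM in healthy libraries (log2 fold change -0.25 ± 0.32, 95% interval -0.94 to 0.43). Cat, catalase, which removes hydrogen peroxide, had 210, 250, 275 and 221 CPM in coacervate libraries and 229, 195, 207 and 212 CPM in healthy libraries (log2 fold change 0.18 ± 0.13, 95% interval -0.10 to 0.47). Of 23 tested macrophage genes 8 were positive and 15 negative, with a median of -0.06 for coacervate, beside 0.40 for HA and 0.54 for osteoarthritic against the same healthy libraries.

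Markers of blood and marrow cells showed small differences of 1 sign across whole lists. All 17 tested neutrophil genes were negative, with a median of -0.27 and 3 (17.6%, against 1.91% of all genes) wholly below the healthy values, Padi4, Cebpe and Mmp9, named after their values were seen. The neutrophil list took 0.641% to 0.871% of counts in coacervate libraries and 0.899% to 1.08% in healthy libraries, and these ranges did not overlap. Coacervate replicate 3 was the lowest of the 8 libraries in 13 of the 17 genes, and without it the neutrophil median was -0.19. The neutrophil medians against the same healthy libraries were 0.281 for HA and 0.244 for osteoarthritic cartilage. All 19 B cell genes were negative with a median of -0.15, and 13 of 14 tested T cell and NK cell genes were negative with a median of -0.29. Without healthy replicate 4 the T cell and NK cell median was -0.16. The T cell and NK cell list took 0.0215% to 0.0261% of counts in coacervate libraries and 0.0249% to 0.0285% in healthy libraries. All 18 tested erythroid genes were positive with a median of 0.18, and they took 12.7% to 16.3% of counts in coacervate libraries and 11.7% to 15.5% in healthy libraries. Proliferation genes had 19 of 21 positive and a median of 0.15, which was 0.07 without coacervate replicate 1. Mki67, a protein of dividing cells, had 1699, 1648, 1700 and 1666 CPM in coacervate libraries, against 1536, 1163, 1370 and 1448 CPM in healthy libraries, and it and Plk1 were the 2 non-overlapping members (9.52%, against 1.75% of all genes), named after their values were seen. Osteoclasts and neutrophils both carry Mmp9, and the part of marrow cells in the osteoclast differences was not tested.

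**Figure D5:**
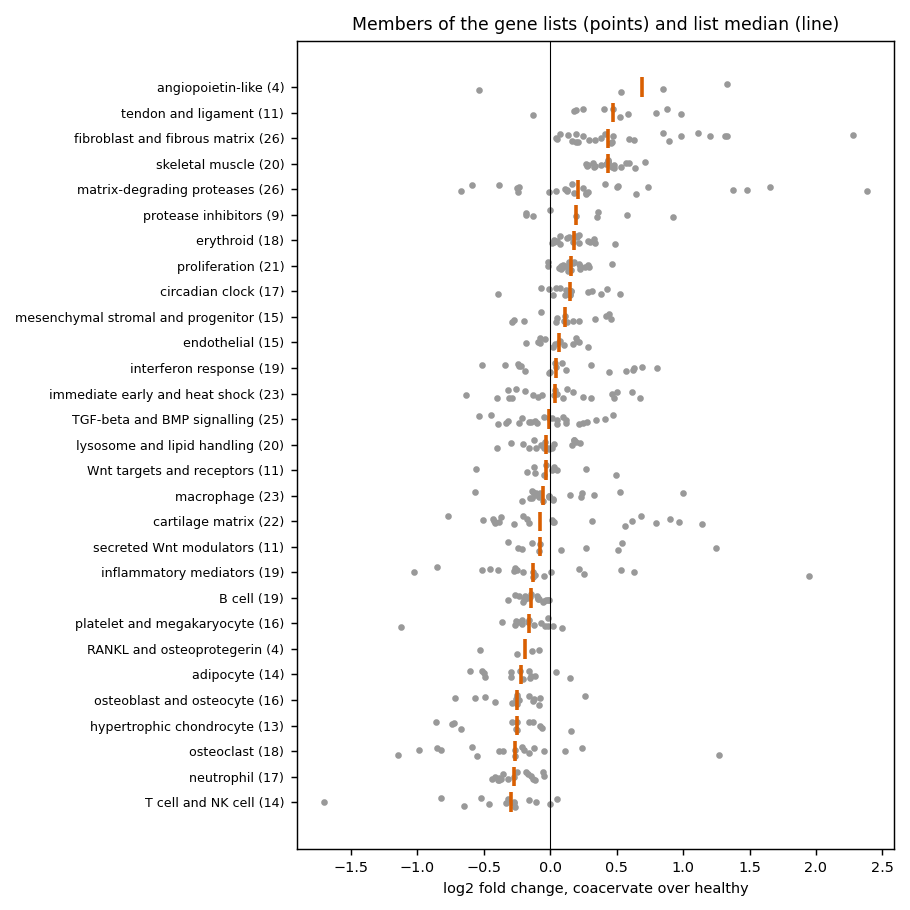
Log2 fold change of coacervate over healthy for every tested member of 29 gene lists (points; number tested in brackets) with the list median (line), ordered by median. Fibrous matrix, tendon and muscle genes lie mostly to the right of 0 and osteoclast, neutrophil, T cell and NK cell genes mostly to the left, without any member passing the test.

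The angiopoietin-like list had the highest median of the 29 lists, 0.69 over 4 tested genes, and it includes Angptl1, a marker set for this comparison. Without coacervate replicate 3 this median was 0.33. Against the same healthy libraries it was 0.874 for HA and 0.948 for osteoarthritic cartilage. Protease inhibitors had a median of 0.20 over 9 tested genes, stromal and progenitor genes 0.11 over 15, endothelial genes 0.07 over 15 and circadian clock genes 0.15 over 17. Platelet genes had a median of -0.16 over 16, adipocyte genes -0.22 over 14, lysosome and lipid handling genes -0.03 over 20, TGF-beta and BMP genes -0.01 over 25, interferon response genes 0.05 over 19, and immediate early and heat shock genes 0.03 over 23. Without coacervate replicate 3 the medians were 0.049 for protease inhibitors, -0.03 for stromal and progenitor genes, -0.39 for genes of the immediate early and heat shock list and -0.01 for circadian clock genes. Within TGF-beta and BMP signalling, Id3, a target of BMP signalling named after its values were seen, had 48.3, 45.8, 50.5 and 50.5 CPM in coacervate libraries, against 65.5, 56.6, 81.1 and 78.8 CPM in healthy libraries (log2 fold change -0.53 ± 0.18). Its groups did not overlap. Among adipocyte genes, Adipoq (adiponectin) had 55.7, 61.9, 61.9 and 69.9 CPM in coacervate libraries, against 74.97, 104, 84.1 and 86.7 CPM in healthy libraries, and it was also named after its values were seen.

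The difference between the carriers was tested directly, which asks whether the distance from healthy cartilage differs between them. No gene passed (0 of 14337 by edgeR, smallest adjusted p 0.102), 1480 genes (10.3%) had an unadjusted p under 0.05, and DESeq2 called 325. Without HA replicate 4, edgeR called 11 genes. The coacervate difference from HA was log2 -2.16 ± 0.36 for Apoe (adjusted p 0.102) and -2.49 ± 0.47 for Ccl7 (adjusted p 0.111). Against osteoarthritic cartilage 1 gene passed by edgeR, Metrnl, which encodes the secreted factor meteorin-like. Metrnl had 18.5, 15.4, 14.8 and 17.5 CPM in coacervate libraries, against 30.1, 32.4, 33.1 and 28.1 CPM in osteoarthritic and 18.5, 20.2, 20.0 and 16.7 CPM in healthy libraries. It fell to 16.6 CPM on average in coacervate libraries, against 30.9 CPM in osteoarthritic libraries (log2 fold change -0.90, adjusted p 0.0441), while its difference from healthy cartilage was log2 -0.19 ± 0.13 (95% interval -0.46 to 0.08).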

How the data were processed

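RNA selected with oligo(dT) beads from total RNA (RIN above 7) was sequenced from both ends with dUTP strand marking, per the labels' protocols. Build rn6 and the tools StringTie 2.1.6, HISAT2 2.2.1 and cutadapt 1.9, as well as edgeR and DESeq2, stand without their roles in the submitters' processing notes; the counting tool and strand setting are not given in the sources used here, so overlapping, antisense and duplicated genes are uncertain. The deposited table gives whole-number counts, not normalised, and FPKM values, which the authors scaled to length and depth, per the file headers, for 23552 genes in 16 libraries. Among low counts, 6480 values of 2 and 4576 of 3 were found. Whether mates of a pair were counted separately cannot be told from these values, since low counts can fall in number anyway. If mates were counted separately, counting error is larger than the counts imply.

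Testing covered the 14337 genes that reached an FPKM of 1 in 4 or more libraries. edgeR's quasi-likelihood test (robust) was run on the counts in 1 fit of all 16 libraries with 4 group means, TMM scaling, Benjamini-Hochberg adjustment and a threshold of 0.05. CPM values are TMM-normalised, log2 levels used a prior count of 2, and standard errors were derived from the F statistic with 95% intervals from its degrees of freedom. A list is described by counts and its median without a set test. DESeq2 calls come from its Wald test on the same counts. The 29 gene lists, the members and the alternatives were chosen with earlier results of these data known. Shares of non-overlapping members therefore describe the lists and do not test them. With no call, the named genes were the 3 smallest p-values in each direction among genes with a non-placeholder symbol. Added to these were 4 markers (Sfrp2, Acp5, Dpt and Angptl1) and a panel of 18 genes given whatever its p. All genes outside this rule were named after their values were seen, also where this is not said beside the gene. Same-numbered coacervate and healthy replicates did not deviate together, and no library was a copy of another. Promoters came from RefSeq (GRCr8) and gene coordinates from the deposited table (rn6). Software was python 3.11.15 and R 4.3.3 with DESeq2 1.42.0, limma 3.58.1 and edgeR 4.0.16, and the procedure was tested on simulated counts.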

Additional observations from a re-analysis of the deposited data

Results flagged for a closer look

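In 7 of 64 sets of 4 libraries examined, 1 library lay far from the other 3 by Dixon's test, where chance gives about 1 in 20. In coacervate cartilage these were Dpt in replicate 3 (137.8 CPM), Ctsk in replicate 1 (1242 CPM) and Il1b in replicate 1 (18.6 CPM). In healthy cartilage they were Ctsk in replicate 4 (1417 CPM), Col1a1 in replicate 3 (12430 CPM), Sox9 in replicate 3 (12.83 CPM) and Ccl7 in replicate 4 (1.263 CPM). Without coacervate replicate 3, the Dpt log2 fold change was 0.74.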

How the results depend on the processing

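No gene was called between coacervate and healthy cartilage under any alternative run with edgeR or limma: size factors of DESeq2, scaling without haemoglobin and muscle genes, other filters, 8 libraries alone, no robust fit, omission of each library in turn or of both replicates 3, and limma on FPKM with a pseudocount of 1 or 0.1 (430 and 424 genes at an unadjusted p under 0.05). DESeq2 called 15 genes, 7 higher and 8 lower. The replicate block, fitted although the numbers do not pair the libraries (same-number correlations -0.022 to 0.059), gave 0 calls and an Acan log2 fold change of -0.018. For coacervate against HA, DESeq2 called 325 genes and leaving out single libraries gave 0 to 11. The cause of these differences was not tested. Without both replicates 3, Col2a1 stood at 0.20 and Adamts5 at -0.064. Leaving out single libraries gave log2 fold changes of -0.34 to 0.062 for Col2a1, -0.14 to 0.20 for Acan, -0.081 to 0.31 for Sox9, -0.067 to 0.20 for Adamts5, -0.50 to 0.35 for Ccl2 and -0.19 to 0.52 for Ccl7. Without coacervate replicate 3, list medians were also -0.08 for muscle, -0.39 for immediate early, 0.33 for angiopoietin-like, 0.18 for fibrous matrix and 0.07 for protease genes. List medians over all omissions ran from -0.35 to -0.13 for RANKL and osteoprotegerin and from -0.087 to 0.14 for macrophage genes (positive without healthy replicate 1). Non-overlapping members ran from 7 to 12 for fibrous matrix and 5 to 9 for proteases (most without coacervate replicate 4), counts that omission of a library cannot lower. The share of all genes wholly above healthy rose as well, from 1.75% with all libraries to 3.57% without coacervate replicate 4. Alternatives added after seeing the data were the omission of both replicates 3, the fit without robust estimation and the counts of non-overlapping members. Depth limits genes of low count such as Ccl7 and Tnfsf11.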

Other observations

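The 15 genes DESeq2 called were Sfrp2, Angptl1, Gpm6b, Comp, Dpt, Mfap5 and LOC102553715 on the positive side and LOC103690326 (a model of Dcstamp), Acp5, Ocstamp, Ccr1, Shtn1, Kif17, Sdc1 and Apoc4 on the negative side. DESeq2's adjusted p was 0.000953 for Sfrp2, 2.43e-05 for LOC103690326, 0.0109 for Acp5 and 0.029 for Ocstamp. Sdc1, the heparan sulphate proteoglycan syndecan 1, had 39.2, 38.4, 38.7 and 40.1 CPM in coacervate libraries, against 54.8, 51.4, 65.5 and 70.8 CPM in healthy libraries. Kif17, a kinesin motor, had 4.49, 4.11, 3.92 and 4.15 CPM in coacervate libraries, against 6.39, 6.08, 5.94 and 7.90 CPM in healthy libraries. Apoc4, an apolipoprotein, was the smallest DESeq2 adjusted p (1.54e-11), but it had 0 counts in all 4 coacervate libraries and in 3 healthy libraries, and 11.5 CPM in healthy replicate 3 alone.

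Healthy replicate 3 held 14 genes at more than 4 times their level in every other library. Among them were Vtn at 92.8 CPM (at most 5.04 CPM elsewhere), Rbp4 at 399 CPM (at most 33.9 CPM elsewhere), Stard10 at 96.8 CPM (at most 6.32 CPM elsewhere) and Krt8 at 19.9 CPM (at most 3.42 CPM elsewhere). No other library had more than 1 such gene. Vtn and Rbp4 encode plasma proteins made mainly in the liver.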
